A study of Mus musculus with 12 samples.

Results

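Toll-like receptors are the membrane receptors with which innate immune cells sense microbial molecules. The mouse genes Tlr1, Tlr2, Tlr3, Tlr4, Tlr5, Tlr6, Tlr7, Tlr8, Tlr9 and Tlr13 were taken by name from a table of read counts for 35976 gene symbols, and all 10 were found. The study profiled polyadenylated RNA of sorted CD45.2+ bone marrow cells from C57BL/6 mice in 4 groups of 3 libraries. BN1 cells carry the genotype label BRD9-NUTM1, MA9 cells MLL-AF9 and ME cells MLL-ENL, each a fusion gene, and each of these labels also gives CD45.2(+). The WT group, labelled B6_WT, has the genotype CD45.2(+) alone, with no fusion named. CD45.2 is the form of the pan-leukocyte antigen, encoded by Ptprc, that C57BL/6 cells carry, so the sort sets no lineage and WT is a mixture of marrow cells. The series title places the fusions in leukemia, and the question here is how each fusion leukemia differed in these receptors from normal marrow and from the other leukemias. The labels give no age, sex, way of delivering the fusion or number of animals. Whether replicate libraries stem from different mice is not stated either, so every p-value rests on the spread between 3 libraries, which may be technical.

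A Toll-like receptor binds its ligand through a horseshoe of leucine-rich repeats and signals through a cytoplasmic domain shared with the interleukin-1 receptors, which recruits the adaptor MyD88 or, for TLR3 and internalised TLR4, the adaptor TRIF. Kinases of the IRAK family and the ubiquitin ligase TRAF6 then lead to nuclear factor NF-kB and to interferon regulatory factors. TLR1, TLR2, TLR4, TLR5 and TLR6 sit at the cell surface and bind bacterial lipoproteins, lipopolysaccharide or flagellin. TLR3, TLR7, TLR8, TLR9 and TLR13 sit in endosomes, reach them with the chaperone UNC93B1, and bind nucleic acids. In bone marrow the receptors are found mostly on monocytes, neutrophils, dendritic cells and B cells, and their ligands can drive progenitors towards myeloid cells.

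Positions are those of GENCODE M21 on GRCm38 (mm10). Tlr1 (chr5:64924679-64933563, minus strand) and Tlr6 (chr5:64952031-64960097, minus strand) lie 18.467 kb apart on chromosome 5, and Tlr8 (chrX:167242696-167264329, minus strand) and Tlr7 (chrX:167304929-167330558, minus strand) lie 40.599 kb apart on the X chromosome. Tlr13 (chrX:106143204-106160493, plus strand) is also on the X chromosome. The others, each on another chromosome, are Tlr2 (chr3:83836272-83841767), Tlr3 (chr8:45395665-45411080), Tlr4 (chr4:66827584-66930284), Tlr5 (chr1:182954788-182976044) and Tlr9 (chr9:106222598-106226883). Tlr1 and Tlr6 are close paralogs whose shared reads the counting could have split, so their separate values carry that uncertainty. Tlr3 alone overlaps an annotated gene on the other strand, the antisense Gm45542, and whether the counting used strand is not stated. The 250 bases before the transcription start of Tlr9 and of Tlr8, from RefSeq GRCm38.p6, are shown as examples. Tlr9 was lower in all 3 leukemias than in WT, but so were Tlr2, Tlr5 and Tlr13. Tlr8 differed most in log2 fold change among the endosomal receptors with counts in every library. Both stretches run 5′ to 3′ on the gene's own strand, at chr9:106222348-106222597 (plus) and chrX:167264330-167264579 (minus). Capitals mark matches to the motifs described next.
Tlr9: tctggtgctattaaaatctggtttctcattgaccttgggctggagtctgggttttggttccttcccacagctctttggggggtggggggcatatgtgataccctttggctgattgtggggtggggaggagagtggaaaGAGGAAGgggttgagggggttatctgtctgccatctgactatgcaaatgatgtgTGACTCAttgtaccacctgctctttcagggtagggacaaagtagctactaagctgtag
Tlr8: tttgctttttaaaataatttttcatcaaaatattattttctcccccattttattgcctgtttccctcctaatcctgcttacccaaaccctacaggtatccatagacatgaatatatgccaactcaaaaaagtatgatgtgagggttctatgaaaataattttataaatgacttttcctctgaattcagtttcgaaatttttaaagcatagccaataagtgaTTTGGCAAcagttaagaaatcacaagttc

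Promoter windows were found for 8 of the 10 receptors (10 windows, none for Tlr4 and Tlr7). Of 5 myeloid and inflammatory motifs searched on both strands, the PU.1 core GAGGAAG was in a window of Tlr1, Tlr9 and Tlr13, against 10.6% of all 32851 windows of this length. The C/EBP motif TTGCNNAA was in those of Tlr3, Tlr6 and Tlr8 (9.56% of all windows). The AP-1 motif TGANTCA was in that of Tlr9 (6.75%), the NF-kB motif (GGGNN directly followed by TTTCC) in that of Tlr3 (1.41%) and an interferon response motif (GAAANN directly followed by GAAA) in one of Tlr6, as 2 overlapping matches (2.98%). The windows of Tlr2 and Tlr5 held none of the 5 motifs. In Tlr9 the PU.1 core begins 112 bases and the AP-1 motif 58 bases upstream of the start. In Tlr8 the C/EBP match begins 29 bases upstream and is read as TTTGGCAA on the printed strand. These letters are a description and not evidence of binding.

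Libraries held 18292636 to 25732049 counts, of which 3345 to 10907 per library fell on the 10 receptors. Replicates of a group correlated at 0.991 to 0.994 in log CPM across genes. ME replicate 3 stood apart in the gene LOC101056014, at 14795 counts scaled to library size (CPM) against 317 to 568 in the other 11 libraries. It also stood apart in Lars2, at 3508 CPM against 131 to 152 in the others. Without that library no receptor's log2 fold change in a comparison with ME moved by more than 0.224, and the called ones kept their calls except Tlr9 in MA9 against ME. Ptprc, the target of the sort, was at 474 to 512 CPM in BN1, 359.8 to 415 in MA9, 317 to 334 in ME and 942 to 1087 in WT. The summed level of 8 neutrophil markers was 4243 to 4478 CPM in BN1, 516 to 555 in MA9, 156 to 205 in ME and 54666 to 57511 in WT. The 8 monocyte or macrophage markers summed to 6617 to 6971, 2740.2 to 2992, 3472 to 3810.3 and 2449 to 2809 CPM in the same groups, and all 8 were at 1 CPM or more in each. Taken singly, at the adjusted p threshold given below, 6 were higher and 2 lower in BN1 than in WT. In MA9 3 were higher and 4 lower, and in ME 2 and 6. Over all genes tested, 38.4% were higher and 40.8% lower in BN1, 39.3% and 40.8% in MA9, and 39.0% and 40.2% in ME. The sums thus do not stand for each marker. Markers of B cells, plasmacytoid and conventional dendritic cells, T cells and NK cells summed to far less in each leukemia than in WT, with values beside Tlr9. In bulk RNA, fewer cells of a type and less RNA per cell cannot be told apart, and this holds for every difference below.

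Tlr1, Tlr3, Tlr4, Tlr6, Tlr7 and Tlr8 were higher in BN1 and Tlr2, Tlr5, Tlr9 and Tlr13 lower, so 10 of 10 were called at an adjusted p under 0.05 (edgeR quasi-likelihood test, Benjamini-Hochberg over the 15334 genes that passed the count filter, which all 10 receptors passed). Of all genes tested, 79.2% were called in this comparison, 38.4% higher and 40.8% lower. The MA9 leukemia was lower than WT in 9 receptors and higher only in Tlr1, beside 80.1% of all genes called (39.3% higher, 40.8% lower). In the ME leukemia 7 receptors were lower, Tlr1 and Tlr4 were higher and Tlr6 was not called, beside 79.2% of all genes called (39.0% higher, 40.2% lower). The median log2 fold change of the 10 receptors was 0.37 in BN1, -1.93 in MA9 and -1.23 in ME, beside medians over all genes tested of -0.01, -0.01 and -0.01. Scaling of the libraries tends to hold the all-gene medians near 0. Regardless of sign, the median size was 0.82, 1.93 and 1.23 for the receptors, beside 0.71, 0.75 and 0.72 for all genes. With a 2-fold minimum required (glmTreat in edgeR), 3 receptors were called in BN1, 7 in MA9 and 5 in ME, beside 31.1%, 31.4% and 30.6% of all genes. At these background shares, a call by itself does not set the receptors apart from other genes. The 3 comparisons share the WT libraries.

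Between the leukemias, BN1 had the higher levels of most receptors. All 10 receptors were higher in BN1 than in MA9, beside 32.8% of all genes called higher, 34.9% called lower and 67.7% in either direction. Against ME, 9 were higher in BN1 and Tlr4 alone was lower, beside 31.8% of all genes called higher, 33.0% lower and 64.7% in either direction. MA9 against ME, the pair of MLL fusions, had 7 receptors lower in MA9 (Tlr2, Tlr3, Tlr4, Tlr6, Tlr7, Tlr8 and Tlr13), Tlr9 higher, and Tlr1 and Tlr5 not called, beside 20.4% of all genes lower, 20.2% higher and 40.6% called. Over all genes that comparison gave 3095 calls higher and 3130 lower, or 3888 and 2509 without TMM scaling of the libraries. Median log2 fold changes of the receptors were 1.33 for BN1 against MA9, 0.85 for BN1 against ME and -0.76 for MA9 against ME, beside -0.01, -0.01 and 0.00 over all genes tested. Regardless of sign, the medians were 1.33, 0.85 and 0.76 for the receptors, beside 0.48, 0.44 and 0.23 for all genes. Placing Tlr3, which had no count in MA9, at its bound leaves these medians as they are. With the 2-fold minimum, 6 receptors were called in BN1 against MA9 (17.0% of all genes), 4 in BN1 against ME (15.0%) and 4 in MA9 against ME (7.66%).

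**Figure D1:**
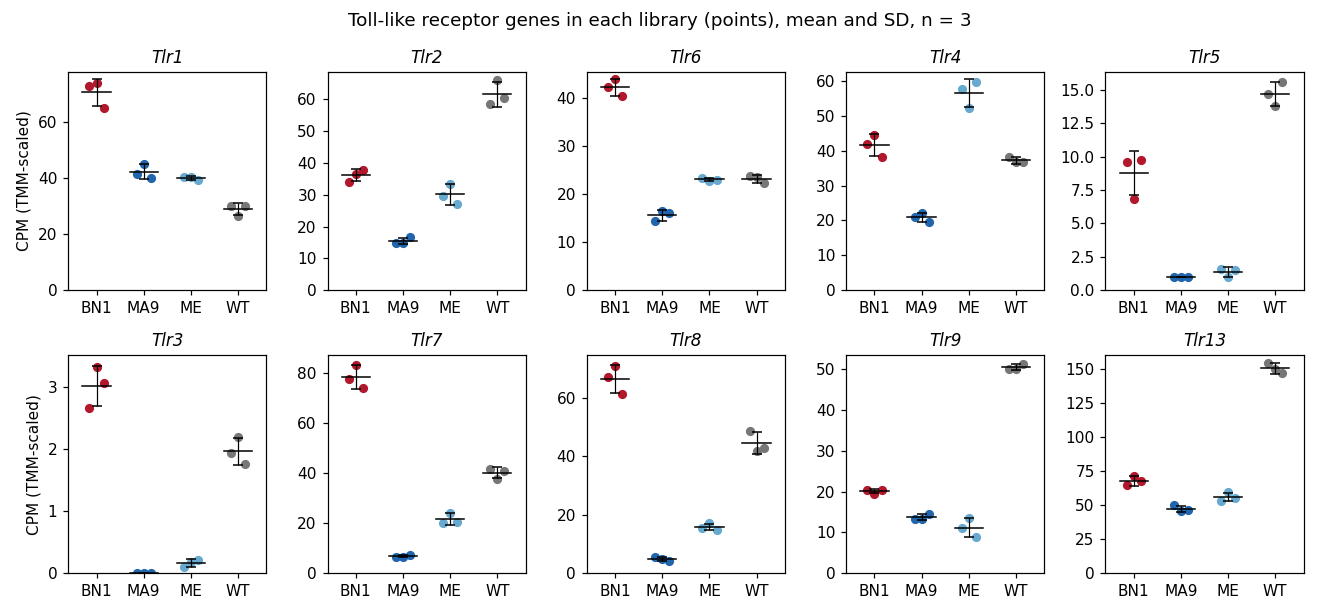
TMM-scaled CPM of the 10 receptors in each library (points, linear axis from 0), with the mean and SD of each group (horizontal line and error bar), for BN1, MA9, ME and WT from left to right, 3 libraries each. Tlr7 and Tlr8 are highest in BN1 and lowest in MA9, while Tlr9 and Tlr13 are highest in WT.

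Among the surface receptors, Tlr2 encodes the common subunit for bacterial lipoproteins, TLR1 pairs with it for triacylated and TLR6 for diacylated lipopeptides. Tlr1 was higher in all 3 leukemias than in WT while Tlr2 was lower in all 3. Tlr1 was at 73.1, 73.9 and 65.2 CPM in BN1, 41.5, 45.3 and 40.1 CPM in MA9, 40.6, 40.5 and 39.3 CPM in ME and 30.1, 26.6 and 30.2 CPM in WT. Every leukemia library lay above every WT library and the 3 BN1 libraries above all others. The log2 fold changes over WT were 1.29 ± 0.07 (adjusted p = 6.4e-16) in BN1, 0.55 ± 0.07 (adjusted p = 7.6e-08) in MA9 and 0.47 ± 0.07 (adjusted p = 1.1e-06) in ME by edgeR. MA9 and ME overlapped, with a log2 difference of 0.08 ± 0.07 (adjusted p = 0.4) by edgeR, so the order was BN1, then MA9 and ME together, then WT.

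Tlr2 followed a different order. It was at 34.0, 36.6 and 37.7 CPM in BN1, 14.9, 14.8 and 16.6 CPM in MA9, 29.7, 33.5 and 27.1 CPM in ME and 58.4, 66.0 and 60.5 CPM in WT. WT libraries were highest and MA9 libraries lowest, and no group overlapped another. Relative to WT, log2 fold changes by edgeR were -0.77 ± 0.07 (adjusted p = 2e-10) in BN1, -2.00 ± 0.08 (adjusted p = 1.1e-18) in MA9 and -1.03 ± 0.08 (adjusted p = 8e-13) in ME. The closest pair, BN1 against ME, differed by 0.26 ± 0.08 (adjusted p = 0.0042) in the same edgeR fit.

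For Tlr6 the levels were 42.2, 43.9 and 40.4 CPM in BN1, 14.3, 16.5 and 16.0 CPM in MA9, 23.4, 22.7 and 22.9 CPM in ME and 23.7, 23.5 and 22.2 CPM in WT. BN1 stood above the rest, MA9 below, and ME and WT overlapped. By edgeR the log2 fold change was 0.86 ± 0.07 (adjusted p = 1.3e-11) for BN1 over WT and -0.56 ± 0.08 (adjusted p = 2.6e-07) for MA9 over WT. ME differed from WT by -0.01 ± 0.08 (adjusted p = 0.94) on the log2 scale by edgeR, a difference within the error. Its sign turned under 7 of the 22 alternative settings. Among the 22, the 2-fold minimum could not turn it. The mean ratio of Tlr1 to Tlr6, each in CPM per kilobase of exon, was 1.87 ± 0.0671 in BN1, 3.03 ± 0.222 in MA9, 1.94 ± 0.0437 in ME and 1.40 ± 0.131 in WT, and that of Tlr1 to Tlr2 was 1.77 ± 0.195 in BN1, 2.48 ± 0.287 in MA9, 1.21 ± 0.110 in ME and 0.425 ± 0.0550 in WT (SD, n = 3 libraries).

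Tlr4, the receptor for lipopolysaccharide, was highest in ME and lowest in MA9. Its levels were 42.0, 44.5 and 38.2 CPM in BN1, 20.9, 22.3 and 19.5 CPM in MA9, 57.8, 52.2 and 59.8 CPM in ME and 38.3, 36.7 and 36.7 CPM in WT. All ME libraries lay above and all MA9 libraries below those of the other groups, whereas BN1 and WT overlapped. The log2 fold change over WT was 0.60 ± 0.07 (adjusted p = 1.1e-08) in ME and -0.83 ± 0.08 (adjusted p = 9e-11) in MA9 by edgeR, and MA9 differed from ME by -1.44 ± 0.07 (adjusted p = 2e-15). The difference between BN1 and WT was small, 0.16 ± 0.07 (adjusted p = 0.046) by edgeR, and the call was lost with DESeq2 (adjusted p = 0.2), limma-voom (adjusted p = 0.054), RLE scaling (adjusted p = 0.17), a 1 CPM filter (adjusted p = 0.065), the replicate block and without BN1 replicate 1, BN1 replicate 2, WT replicate 2 or WT replicate 3. BN1 was lower than ME by edgeR, with a log2 fold change of -0.45 ± 0.07 (adjusted p = 2.1e-06).

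Tlr5 encodes the flagellin receptor. It was at 9.63, 6.84 and 9.77 CPM in BN1, 1.005, 0.992 and 1.02 CPM in MA9, 1.60, 0.952 and 1.5 CPM in ME and 14.7, 13.8 and 15.6 CPM in WT. The MA9 and ME libraries were near 1 CPM and overlapped, BN1 lay between them and WT, and WT was highest. Relative to WT, edgeR gave log2 fold changes of -0.74 ± 0.14 (adjusted p = 1.9e-05) in BN1, -3.86 ± 0.19 (adjusted p = 9.8e-17) in MA9 and -3.45 ± 0.18 (adjusted p = 5.4e-16) in ME. BN1 exceeded MA9 by 3.12 ± 0.20 (adjusted p = 5.5e-14) and ME by 2.71 ± 0.19 (adjusted p = 5.6e-13), and MA9 against ME was -0.41 ± 0.27 (adjusted p = 0.24) by edgeR. The summed level of 8 neutrophil markers was likewise highest in WT and next in BN1. It was higher in MA9 than in ME, which Tlr5 was not. The part of these markers in Tlr5 was not tested.

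**Figure D2:**
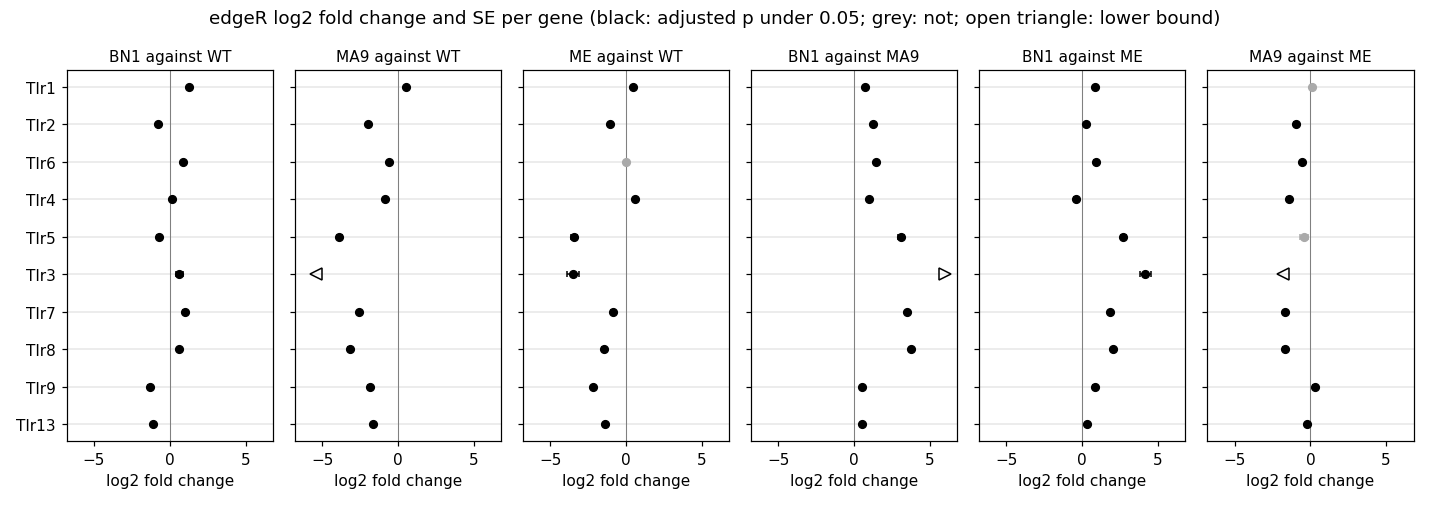
Log2 fold changes of the 10 receptors (points with SE bars, from edgeR; black where the adjusted p is under 0.05, grey where not) for each leukemia over WT and for each pair of leukemias, a positive value being higher in the first group named. Open triangles are the lower bounds of Tlr3, which had no count in MA9. The BN1 against MA9 values all lie above 0, with Tlr7 at 3.51 and Tlr8 at 3.76.

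Among the endosomal receptors, TLR7 binds single-stranded RNA and its neighbour TLR8 is the paralog with related ligands in humans. Both genes were higher in BN1 than in WT and lower in MA9 and ME than in WT. Tlr7 was at 77.5, 83.1 and 73.8 CPM in BN1, 6.53, 6.69 and 7.29 CPM in MA9, 20.0, 24.3 and 20.4 CPM in ME and 41.7, 37.5 and 40.9 CPM in WT. Tlr8, whose upstream window is shown above, was at 66.9, 70.8 and 61.3 CPM in BN1, 5.53, 4.83 and 4.37 CPM in MA9, 15.6, 17.1 and 14.9 CPM in ME and 48.7, 41.7 and 42.7 CPM in WT. For both genes the 4 groups were fully separated, in the order BN1, WT, ME, MA9. Tlr7 was 11.4-fold higher in BN1 than in MA9 (log2 3.51 ± 0.09, edgeR adjusted p = 4e-23) and Tlr8 13.5-fold (log2 3.76 ± 0.10, edgeR adjusted p = 7.8e-23).

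Over WT, edgeR gave Tlr7 log2 fold changes of 0.96 ± 0.07 (adjusted p = 7.8e-13) in BN1, -2.55 ± 0.09 (adjusted p = 5.9e-20) in MA9 and -0.89 ± 0.08 (adjusted p = 3.8e-11) in ME. Tlr8 had 0.58 ± 0.07 (adjusted p = 5.2e-08), -3.18 ± 0.10 (adjusted p = 2.4e-21) and -1.48 ± 0.08 (adjusted p = 2.4e-15) by edgeR in the same 3 groups. Between leukemias, BN1 exceeded ME by 1.85 ± 0.07 (adjusted p = 2.7e-18) for Tlr7 and 2.06 ± 0.08 (adjusted p = 1.7e-18) for Tlr8, and edgeR gave MA9 against ME -1.66 ± 0.10 (adjusted p = 2.9e-14) for Tlr7 and -1.70 ± 0.11 (adjusted p = 2.8e-13) for Tlr8. The ratio of Tlr7 to Tlr8 per kilobase was 1.04 ± 0.0203 in BN1, 1.24 ± 0.214 in MA9, 1.19 ± 0.0607 in ME and 0.794 ± 0.0438 in WT, so WT was the group with more Tlr8 than Tlr7. Both genes and Tlr13 are X-linked. Xist, transcribed from the inactive X chromosome of females, was at 839 to 981 CPM in BN1, 323 to 373 in MA9, 895 to 934 in ME and 755 to 890.1 in WT, while Y-linked genes summed to 149 to 165 CPM in MA9 and to at most 0.629 CPM elsewhere. The MA9 libraries held Xist together with Y-linked transcripts, and the part of this in the X-linked receptors was not tested.

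Tlr9, the receptor for unmethylated CpG DNA, was lower in all 3 leukemias. Its levels were 20.4, 19.5 and 20.3 CPM in BN1, 13.4, 13.2 and 14.6 CPM in MA9, 11.03, 13.6 and 8.89 CPM in ME and 50, 49.9 and 51.2 CPM in WT. WT libraries lay far above the rest, BN1 next, and MA9 and ME overlapped. Log2 fold changes over WT were -1.33 ± 0.09 (adjusted p = 1.3e-13) in BN1, -1.87 ± 0.09 (adjusted p = 1.6e-16) in MA9 and -2.16 ± 0.10 (adjusted p = 1.2e-17) in ME by edgeR. BN1 exceeded MA9 by 0.55 ± 0.10 (adjusted p = 1.8e-05) and ME by 0.84 ± 0.10 (adjusted p = 3.7e-08) in the edgeR fit. MA9 against ME was called at 0.29 ± 0.11 (adjusted p = 0.031) by edgeR, but not with only those groups fitted (adjusted p = 0.067) or without MA9 replicate 1, MA9 replicate 3, ME replicate 1 or ME replicate 3. The log2 fold change was 0.15 without ME replicate 3 and 0.46 without ME replicate 2. The ratio of Tlr7 to Tlr9 per kilobase was 3.32 ± 0.281 in BN1, 0.424 ± 0.00793 in MA9, 1.68 ± 0.242 in ME and 0.677 ± 0.0345 in WT.

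TLR9 is known from plasmacytoid dendritic cells and B cells, whose markers were also lower in each leukemia than in WT. Among the leukemias the order differed, since BN1 had the highest Tlr9 and the lowest sum of B cell markers. The summed level of 4 plasmacytoid markers was 0.0450 to 0.329 CPM in BN1, 0.345 to 0.603 in MA9, 0.0556 to 0.193 in ME and 160.3 to 165 in WT. That of 6 B cell markers was 0.360 to 0.782 CPM in BN1, 17.4 to 18.6 in MA9, 0.870 to 0.945 in ME and 1027 to 1159 in WT, and 1 of the 6 reached 1 CPM over the MA9 libraries. The 5 conventional dendritic markers summed to 2.34 to 2.70, 5.98 to 7.69, 0.589 to 1.02 and 70.7 to 71.8 CPM in the same groups. The 4 T cell markers summed to at most 0.919 CPM and the 3 NK cell markers to at most 0.452 CPM in the leukemias, against 76.5 to 84.8 and 107 to 112 CPM in WT. Their part in the lower Tlr9 was not tested.

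Tlr13, which in mice recognises bacterial ribosomal RNA, was lower in all 3 leukemias. It was at 64.6, 71.9 and 68.0 CPM in BN1, 49.99, 45.8 and 46.5 CPM in MA9, 53.5, 59.7 and 55.1 CPM in ME and 155, 149.9 and 147 CPM in WT. WT libraries held more than any leukemia library, and BN1, ME and MA9 followed in that order without overlap. EdgeR gave log2 fold changes over WT of -1.14 ± 0.05 (adjusted p = 5.1e-17) in BN1, -1.67 ± 0.06 (adjusted p = 2e-20) in MA9 and -1.42 ± 0.06 (adjusted p = 6.3e-19) in ME. The leukemias lay closer together, with 0.52 ± 0.06 (adjusted p = 6.1e-09) for BN1 against MA9, 0.28 ± 0.06 (adjusted p = 0.00011) for BN1 against ME and -0.24 ± 0.06 (adjusted p = 0.0014) for MA9 against ME by edgeR.

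Tlr3, the receptor for double-stranded RNA, was the lowest of the set per kilobase of exon in every group. It was at 2.67, 3.33 and 3.06 CPM in BN1, at 0 CPM in the 3 MA9 libraries, and at 0.0967, 0.181 and 0.222 CPM in ME and 1.94, 2.19 and 1.76 CPM in WT. These levels rest on 219 counts in BN1, 0 in MA9, 10 in ME and 110 in WT over the 3 libraries of each group. Set against a floor of 3 counts over the group, Tlr3 in MA9 was at least 41.7-fold lower than in WT (edgeR adjusted p = 7.3e-11), and BN1 was at least 64.0-fold higher than MA9 (edgeR adjusted p = 4.3e-12). ME was below WT by edgeR with a log2 fold change of -3.53 ± 0.40 (adjusted p = 1.1e-08), and BN1 above ME by 4.15 ± 0.37 (adjusted p = 2.5e-10). MA9 was at least 3.49-fold lower than ME (edgeR adjusted p = 0.0032). BN1 was above WT in all 3 libraries with 0.62 ± 0.24 (adjusted p = 0.023) by edgeR, a call that was lost with DESeq2 (adjusted p = 0.067) and without BN1 replicate 2, BN1 replicate 3, WT replicate 1 or WT replicate 3.

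Levels of different receptors were compared only per length, as CPM per kilobase of annotated exon. In BN1 the order of the means was Tlr1 (21.1), Tlr7 (19.1), Tlr8 (18.5), Tlr13 (15.8), then Tlr2, Tlr6, Tlr4, Tlr9, Tlr5 and Tlr3. In MA9 it was Tlr1 (12.6), Tlr13 (11.03), Tlr2 (5.12), Tlr6 (4.19), then Tlr9, Tlr4, Tlr7, Tlr8, Tlr5 and Tlr3, and in ME it was Tlr13 (13.04), Tlr1 (11.99), Tlr4 (10.2), Tlr2 (9.98), then Tlr6, Tlr7, Tlr8, Tlr9, Tlr5 and Tlr3. WT marrow had Tlr13 (35.0), Tlr2 (20.4), Tlr9 (14.5), Tlr8 (12.4), then Tlr7, Tlr1, Tlr4, Tlr6, Tlr5 and Tlr3. The library ranges of some neighbours overlapped, so that their order is not settled. These were Tlr1 with Tlr7, Tlr7 with Tlr8 and Tlr2 with Tlr6 in BN1, Tlr6 with Tlr9 and Tlr9 with Tlr4 in MA9, and Tlr4 with Tlr2 in ME. Tlr13 led WT by far and Tlr5 and Tlr3 came last in all 4 groups. With the longest transcript as the length, Tlr4 (13.9) stood beside Tlr13 (13.8) and Tlr1 (13.3) at the top in ME.

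Added up per kilobase, the 10 receptors came to 109 to 119 in BN1, 43.5 to 44.5 in MA9, 62.5 to 67.4 in ME and 116 to 119 in WT. The BN1 and WT ranges overlapped, and MA9 and ME lay below both. Surface receptors summed to 51.7 to 55.5 in BN1, 25.2 to 27.1 in MA9, 38.0 to 39.0 in ME and 44.7 to 45.6 in WT. The endosomal receptors made 52.2 to 53.2% of the total in BN1, 39.2 to 42.5% in MA9, 38.9 to 42.3% in ME and 60.7 to 62.5% in WT. Within that total Tlr7, Tlr8 and Tlr1 were the largest parts in BN1, at means of 16.8%, 16.3% and 18.6%. In MA9 Tlr1 was 28.8% and Tlr13 25.1%, with 3.81% for Tlr7 and 3.12% for Tlr8. ME had the largest mean share of Tlr4, 15.8%, against 5.72% in WT. In WT Tlr13 made 29.9%, Tlr2 17.5% and Tlr9 12.4%. These shares are descriptions and were not tested.

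**Figure D3:**
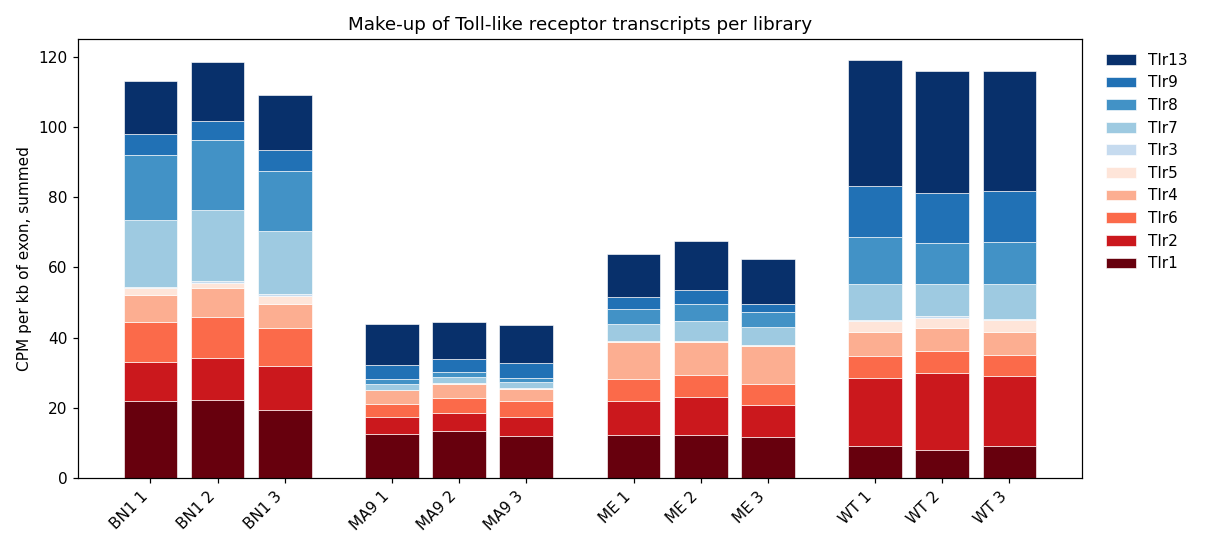
Summed CPM per kilobase of exon of the 10 receptors in each library, as stacked bars for the 3 libraries of BN1, MA9, ME and WT from left to right, with surface receptors in reds and endosomal receptors in blues. The endosomal part of the bar is 52.2 to 53.2% in BN1, 39.2 to 42.5% in MA9, 38.9 to 42.3% in ME and 60.7 to 62.5% in WT.

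Around the receptors, 16 genes for co-receptors, chaperones and trafficking were compared from a list. Against WT, 8 were higher and 6 lower in BN1, 8 and 7 in MA9, and 7 and 8 in ME. Over all genes tested, 38.4% were higher and 40.8% lower in BN1, 39.3% and 40.8% in MA9, and 39.0% and 40.2% in ME, and these are the shares beside which each later count against WT stands. Unc93b1, the chaperone of the endosomal receptors, was at 747 ± 15.2 CPM in BN1, 275 ± 7.64 in MA9, 313 ± 5.71 in ME and 538 ± 18.8 in WT (means ± SD of 3 libraries, as for the genes that follow). Its log2 fold change in BN1 was 1.44 ± 0.04 (adjusted p = 3e-21) over MA9 and 1.26 ± 0.04 (adjusted p = 7.5e-20) over ME by edgeR, and it was lower than WT with -0.97 ± 0.04 (adjusted p = 9.6e-18) in MA9 and -0.78 ± 0.04 (adjusted p = 1.2e-15) in ME. Its means stood in the order BN1, WT, ME, MA9, as did those of Tlr3, Tlr7 and Tlr8, whereas the endosomal receptors Tlr9 and Tlr13 were highest in WT.

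Cd14, which delivers lipopolysaccharide to TLR4, was at 8.52 ± 0.589 CPM in BN1, 18.3 ± 0.835 in MA9, 29.0 ± 1.75 in ME and 10.4 ± 0.991 in WT, with an edgeR log2 fold change of 1.47 ± 0.10 (adjusted p = 1e-13) for ME over WT and -1.77 ± 0.10 (adjusted p = 3.7e-15) for BN1 over ME. Lbp, the lipopolysaccharide-binding protein, was higher in BN1, MA9 and ME than in WT, at 179 CPM in BN1, 211 in MA9, 284 in ME and 78.9 in WT. Ly96, encoding the MD-2 subunit of the TLR4 complex, stayed low at 2.43 CPM in BN1, 1.38 in MA9, 1.80 in ME and 3.22 in WT. Cd180, a TLR4-related receptor of B and myeloid cells, was lower in each leukemia, at 26.1 CPM in BN1, 34.6 in MA9, 21.7 in ME and 69.2 in WT. Lgmn, a protease that processes endosomal receptors, was lower in each leukemia, at 2.50 CPM in BN1, 6.36 in MA9, 3.40 in ME and 34.5 in WT. Cd36, a scavenger receptor that assists TLR2, had 1.83 ± 0.417 CPM in BN1, 0.0766 ± 0.0679 in MA9, no count in ME and 59.7 ± 5.77 in WT. Cd36 is also expressed by erythroid and other cells, and the 5 erythroid markers summed to 14.6 to 14.9 CPM in BN1, 18.8 to 24.1 in MA9, 1.31 to 1.72 in ME and 25029 to 32529.6 in WT. Among the leukemias the orders differed, since Cd36 was highest in BN1 and the erythroid sum in MA9. The part of erythroid cells in Cd36 was not tested.

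Of 24 adaptors and kinases, 11 were higher and 11 lower in BN1 than in WT, 4 and 13 in MA9, and 5 and 13 in ME, beside 79.2%, 80.1% and 79.2% of all genes called in either direction. Chuk, encoding the kinase IKK alpha, was at 289 ± 20.7 CPM in BN1, 74.1 ± 6.64 in MA9, 78.3 ± 6.09 in ME and 72.7 ± 6.24 in WT, with a log2 fold change in BN1 of 1.99 ± 0.07 (adjusted p = 7.4e-17) over WT, 1.96 ± 0.07 (adjusted p = 1.9e-16) over MA9 and 1.88 ± 0.07 (adjusted p = 4.4e-16) over ME by edgeR. Map3k7, encoding the kinase TAK1, was at 213 ± 8.16 CPM in BN1, 67.4 ± 4.40 in MA9, 73.1 ± 3.07 in ME and 83.7 ± 2.47 in WT, with an edgeR log2 fold change of 1.35 ± 0.05 (adjusted p = 4.3e-19) for BN1 over WT. Ikbke, an IKK-related kinase, was higher in each leukemia than in WT, at 209.8 CPM in BN1, 61.9 in MA9, 153 in ME and 53.1 in WT. Myd88, the adaptor of nearly all the receptors, was at 102 ± 2.57 CPM in BN1, 74.5 ± 1.20 in MA9, 89.3 ± 1.92 in ME and 118 ± 1.55 in WT. Tirap, which bridges TLR2 and TLR4 to MyD88, was lower in each leukemia than in WT, at 23.9 CPM in BN1, 30.9 in MA9, 34.5 in ME and 67.9 in WT, with edgeR log2 fold changes of -1.51 ± 0.07 (adjusted p = 1.2e-17) in BN1, -1.13 ± 0.07 (adjusted p = 6.1e-15) in MA9 and -0.98 ± 0.07 (adjusted p = 1.5e-13) in ME. Ticam2, which bridges TLR4 to TRIF, was at 41.3 ± 1.52 CPM in BN1, 17.8 ± 0.600 in MA9, 9.78 ± 1.03 in ME and 26.8 ± 1.41 in WT, with an edgeR log2 fold change of 2.07 ± 0.08 (adjusted p = 3.2e-18) for BN1 over ME.

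Of 11 transcription factors of the pathway, 10 were lower and none higher than in WT in each leukemia, beside 40.8% of all genes lower in BN1, 40.8% in MA9 and 40.2% in ME. Irf7, an interferon regulatory factor downstream of TLR7 and TLR9, was at 14.8 ± 1.14 CPM in BN1, 17.9 ± 0.662 in MA9, 36.0 ± 3.83 in ME and 148 ± 3.76 in WT, and Irf4, expressed in lymphoid and dendritic cells, at 2.75 CPM in BN1, 2.45 in MA9, 0.286 in ME and 82.6 in WT. Irf1 was at 39.0 CPM in BN1, 39.0 in MA9, 46.6 in ME and 143 in WT, and Relb, an NF-kB subunit, at 11.4 CPM in BN1, 3.05 in MA9, 2.97 in ME and 26.6 in WT. Log2 fold changes of Irf7 over WT were -3.33 ± 0.07 (adjusted p = 6.2e-25) in BN1, -3.06 ± 0.07 (adjusted p = 3.5e-24) in MA9 and -2.04 ± 0.07 (adjusted p = 7.3e-21) in ME by edgeR. The lymphoid and dendritic markers described beside Tlr9 were also lower in each leukemia than in WT, and their part in these factors was not tested. Between leukemias, 5 factors were higher and 3 lower in BN1 than in MA9, and 5 and 5 in BN1 than in ME, beside 67.7% of all genes called against MA9 and 64.7% against ME.

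Among 18 genes that restrain the pathway, 4 were higher and 13 lower in BN1 than in WT, 3 and 13 in MA9, and 5 and 11 in ME, where 40.8%, 40.8% and 40.2% of all genes were lower. Nfkbia, encoding the inhibitor IkB alpha and itself an NF-kB target, was at 79.7 ± 5.20 CPM in BN1, 44.9 ± 2.84 in MA9, 126 ± 12.6 in ME and 145 ± 9.54 in WT. Nfkbiz, Nfkbie, Socs1 and Atf3 were lower in each leukemia, with WT means of 43.8, 45.5, 16.0 and 7.16 CPM. Nrros, which in mice restrains Toll-like receptor signalling, was higher in each leukemia, at 381 CPM in BN1, 327 in MA9, 356 in ME and 177 in WT. Sarm1, an adaptor-like inhibitor of TRIF signalling, was higher in each leukemia than in WT, at 0.990 CPM in BN1, 7.80 in MA9, 6.24 in ME and 0.322 in WT. Its log2 fold change by edgeR was 1.61 ± 0.35 (adjusted p = 0.00018) in BN1, on 72 counts against 18 in WT, and 4.58 ± 0.26 (adjusted p = 1.7e-15) in MA9.

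Of 20 cytokine and inflammatory targets, 12 passed the count filter. Against WT, 3 were higher and 9 lower in BN1, 3 and 8 in MA9, and 2 and 9 in ME, with 40.8%, 40.8% and 40.2% of all genes lower in these comparisons. Il1b, encoding interleukin-1 beta, was at 0.379 ± 0.133 CPM in BN1, 0.502 ± 0.0160 in MA9, 0.228 ± 0.0863 in ME and 57.2 ± 2.71 in WT. Tnf was at 11.2 ± 1.04 CPM in BN1, 3.23 ± 0.653 in MA9, 3.86 ± 1.22 in ME and 26.3 ± 0.742 in WT, and BN1 exceeded MA9 by 1.79 ± 0.16 (adjusted p = 2.5e-10) and ME by 1.52 ± 0.16 (adjusted p = 4.3e-09) by edgeR. Saa3, an acute phase gene, was at 151 ± 8.20 CPM in BN1, 0.814 ± 0.258 in MA9, 14.9 ± 1.251 in ME and 0.198 ± 0.0425 in WT. Il12a, encoding a subunit of interleukin-12, was at 71.9 ± 2.95 CPM in BN1, 14.97 ± 1.26 in MA9, 16.9 ± 0.779 in ME and 12.3 ± 0.938 in WT, and Cxcl10, an interferon-induced chemokine, at 11.8 CPM in BN1, 1.03 in MA9, 1.84 in ME and 3.87 in WT. Those 3 genes were higher in BN1 than in each other group by edgeR, with log2 fold changes over ME of 3.34 ± 0.07 (adjusted p = 3.9e-24), 2.09 ± 0.07 (adjusted p = 1.9e-19) and 2.68 ± 0.15 (adjusted p = 9e-15). Other genes of the list went the other way. By edgeR Ccl3 was lower in BN1 than in MA9 (log2 -2.02 ± 0.14) and ME (-1.06 ± 0.14), and Ccl4 lower than in MA9 (-1.32 ± 0.19). Of the 12 genes, 4 were higher and 3 lower in BN1 than in MA9, beside 32.8% and 34.9% of all genes. Against ME, 5 were higher and 2 lower in BN1, beside 31.8% and 33.0%. Neutrophil markers, high in WT, were lower in each leukemia, as was Il1b. Among the leukemias, BN1 had the highest sum of these markers but not the highest mean of Il1b, which was low in all 3. The part of the neutrophil markers in Il1b was not tested.

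**Figure D4:**
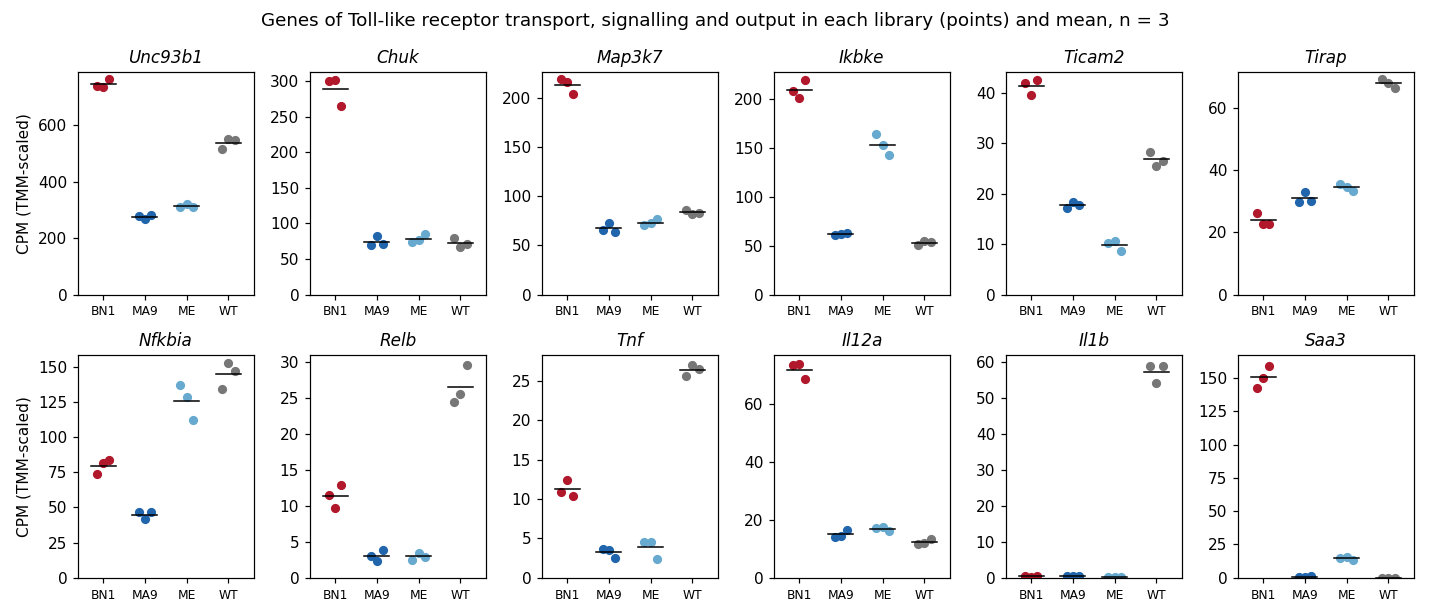
TMM-scaled CPM of 12 genes of receptor transport, signalling and output in each library (points, linear axis from 0), with the group mean as a line, for BN1, MA9, ME and WT from left to right, 3 libraries each. Chuk, Map3k7, Il12a and Saa3 are highest in BN1, and Tirap, Relb, Tnf and Il1b are highest in WT.

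Genes whose pattern was most like that of each receptor were taken by Pearson correlation of log2 CPM over the 12 libraries, among 10806 genes with at least 5 CPM in a group. The libraries fall into 4 groups, so these values mostly reflect 4 group means and carry no p. For Tlr8 the closest were Tnfrsf14 (0.995), Msr1 (0.994), Srgap2 (0.993), and for Tlr7 Rhou (0.991), Klf4 (0.991), Srgap2 (0.991), so Srgap2 was shared by both. Tlr2 was followed by Itgal (0.995), Diaph1 (0.994), S100a6 (0.993), and Tlr4 by Stat4 (0.987), Shtn1 (0.974), Vill (0.972). The closest to Tlr1 were Ddx46 (0.997), Galnt4 (0.995), Arhgap18 (0.995), and to Tlr6 Ddhd1 (0.992), Mob1a (0.990), Tnfrsf1b (0.990). Tlr5 had Irgm1 (0.996), Rap2a (0.995), Ceacam1 (0.990), Tlr9 had Sash3 (0.994), Dopey2 (0.994), Ms4a4b (0.994) and Tlr13 had Snrk (0.996), Bcl6 (0.996), Cds2 (0.996). Msr1, a macrophage scavenger receptor, was at 50.8 CPM in BN1, 0.639 in MA9, 3.77 in ME and 28.6 in WT. Tlr3, which stayed under 5 CPM in every group, was not compared.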

How the data were processed

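Gene-level counts for 35976 symbols and 12 libraries are the authors' deposited read counts, used as given. Per the submitters' processing notes, HISAT2, featureCounts and DESeq2 were used with mm10. Tool versions, annotation, use of strand and treatment of multiply matching reads are given neither by labels nor by headers (not given in the sources used here). RNA, per the labels' protocols, was extracted on RNeasy columns and made into stranded polyA libraries, so reads are not unique molecules.

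Levels are library-size scaled counts (CPM) after TMM scaling in edgeR 4.0.16, on library totals of 18292636 to 25732049 counts. Exon lengths are unions of exons in GENCODE M21, since the RefSeq tables at hand hold no exons. The 15334 genes kept by filterByExpr were fitted in 1 quasi-likelihood model of 4 group means (8 residual degrees of freedom, robust, biological coefficient of variation 5.87%), which was tested on simulated data. The 6 comparisons were adjusted by Benjamini-Hochberg over all genes tested and called at an adjusted p under 0.05. Log2 fold changes are given ± SE. A gene with no count in a group was set to 3 counts over the group for a bound, which covers counting error only.

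Alternatives were DESeq2 1.42.0, limma-voom 3.58.1, other scalings and filters, only the 2 groups compared, a replicate block, a 2-fold minimum, each library left out, and other lengths (R 4.3.3). All 10 receptors are named. Of each other list, up to 4 called genes per direction and comparison could be named by size of change, if the higher group reached 5 CPM. Ly96 and Myd88 were added for their roles, after their values were seen, though Myd88 also met the rule in MA9 against ME. A named gene may be described in every group. Likeness names the 3 genes with the highest correlation per receptor. The receptors, lists and tests were chosen with earlier results of these data known. Every pair of libraries differed by more than sampling noise (lowest mean chi-square per gene 1.97).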

Additional observations from a re-analysis of the deposited data

Results flagged for a closer look

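For 5 receptors, 2 leukemias were called on opposite sides of WT, and the direct comparison of the leukemias in edgeR tests that difference. The share of all genes with such opposite calls was not counted, so the number 5 does not set the receptors apart from other genes. Tlr7 was above WT in BN1 and below it in MA9 and ME, and the log2 fold changes were 3.51 for BN1 against MA9 and 1.85 for BN1 against ME. Tlr8 did the same, with 3.76 for BN1 against MA9 and 2.06 for BN1 against ME. Tlr3 was also higher than WT in BN1, where its call is weak, and lower in MA9 and ME. Its log2 fold change was 4.15 for BN1 against ME, and the fitted 8.995 for BN1 against MA9 depends on the prior count, since MA9 had no Tlr3 count, so that the bound of at least 64.0-fold is the value to use. Tlr4 was above WT in BN1 and ME and below it in MA9, with 0.99 for BN1 against MA9 and -1.44 for MA9 against ME, and its call in BN1 against WT is weak. Tlr6 was above WT in BN1 and below it in MA9, with 1.43 for BN1 against MA9. Groups of 3 libraries give little basis for flagging a single library in a given receptor. ME replicate 3, which stood apart in LOC101056014 and Lars2, was left out in turn like every other library.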

How the results depend on the processing

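Over 22 alternative settings, 1265 of 1319 log2 fold changes of the 10 receptors kept their direction and their side of the threshold, and 47 kept the direction but lost the call, 28 of them under a required 2-fold minimum. The 7 that turned were all Tlr6 in ME against WT, at 0.045 with upper-quartile scaling, 0.11 without scaling, 0.015 without a filter and above 0 without WT replicate 1, WT replicate 2, BN1 replicate 2 or ME replicate 2 (-0.0366 to 0.0130 over all fits with 1 library left out). The 2-fold minimum reuses the main log2 fold changes, so no direction could turn under it. Leaving out a library from a group outside a comparison also leaves little room for change. The total of 1265 is thus not a count of independent checks. The 2-fold minimum left 3 receptors in BN1 against WT, 7 in MA9 against WT, 5 in ME against WT, 6 in BN1 against MA9, 4 in BN1 against ME and 4 in MA9 against ME, and 4773, 4813, 4692, 2613, 2298 and 1174 of all genes in that order. With 1 library left out, 8 to 10 receptors were called in BN1 against WT, 10 in MA9 against WT, 9 in ME against WT, 10 in BN1 against MA9 and against ME, and 7 to 8 in MA9 against ME. Of all genes, these fits called 11940 to 12522, 12091 to 12626 and 11915 to 12431 for BN1, MA9 and ME against WT. They called 9859 to 10602 in BN1 against MA9, 9356 to 10094 in BN1 against ME and 5523 to 6425 in MA9 against ME. The steadiness of the receptor counts thus does not by itself set the receptors apart. Weak calls were Tlr4 and Tlr3 in BN1 against WT and Tlr9 in MA9 against ME. Omitting scaling moved the median of all genes by 0.12, 0.17 and 0.12 on the log2 scale for BN1, MA9 and ME against WT, and Tlr4 in BN1 against WT was 0.28 there. Replicate numbers showed no broad pairing of the libraries, since 18 correlations of same-numbered deviations ran from -0.08 to 0.06. Pairing that touched few genes would not be seen in this way. With the replicate block, 9 receptors were called in BN1 against WT, Tlr4 being lost at an edgeR adjusted p of 0.057, and no other call of a receptor changed. Of the 40 ranks per kilobase in a group, 34 stayed with the longest transcript as length and all 40 without scaling. Depth limits Tlr3, with at most 219 counts in a group.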

Other observations

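The 2 other Toll-like receptor genes of the mouse, Tlr11 and Tlr12, which encode receptors for profilin of parasites, were found almost only in WT. Tlr12 was at 0.0300 ± 0.0519 CPM in BN1, 0.474 ± 0.355 in MA9, no count in ME and 7.996 ± 0.284 in WT, and Tlr11 had 2 counts in BN1, 0 in MA9, 2 in ME and 83 in WT over the 3 libraries of each group. Both were called lower than WT in each leukemia by edgeR.

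Of 17 pattern recognition receptors outside the family, 4 were higher and 10 lower in BN1 than in WT, and 3 were higher and 14 lower in both MA9 and ME. Of all genes tested, 38.4% were higher and 40.8% lower in BN1, 39.3% and 40.8% in MA9, and 39.0% and 40.2% in ME. Mb21d1, the gene of the DNA sensor cGAS, was higher in each leukemia, at 57.7 CPM in BN1, 53.3 in MA9, 46.4 in ME and 25.6 in WT, as was the inflammasome gene Nlrc4, at 27.1 CPM in BN1, 28.6 in MA9, 26.8 in ME and 13.2 in WT. Tmem173, encoding the adaptor STING downstream of cGAS, was at 39.6 ± 1.49 CPM in BN1, 112 ± 0.833 in MA9, 25.9 ± 0.506 in ME and 62.9 ± 2.45 in WT, with an edgeR log2 fold change of -1.50 ± 0.05 (adjusted p = 1.4e-19) for BN1 over MA9. The formyl peptide receptors of phagocytes fell in each leukemia, Fpr1 at 19.2 CPM in BN1, 0.186 in MA9, 4.16 in ME and 128 in WT and Fpr2 at 35.1 CPM in BN1, 4.32 in MA9, 14.6 in ME and 259 in WT, as did the neutrophil markers, whose part was not tested. Between leukemias, 10 of the 17 were higher and 3 lower in BN1 than in MA9 (32.8% and 34.9% of all genes), 13 and 3 in BN1 than in ME (31.8% and 33.0%), and 5 and 9 in MA9 than in ME (20.2% and 20.4%).

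The interleukin-1 receptor family shares the signalling domain of the Toll-like receptors. Of its 7 members, 2 were higher and 5 lower in BN1 than in WT, 1 and 5 in MA9, and 1 and 4 in ME, beside 79.2%, 80.1% and 79.2% of all genes called in either direction. Il1rl2, the interleukin-36 receptor gene, was higher in each leukemia, at 60.0 ± 2.21 CPM in BN1, 25.4 ± 1.72 in MA9, 54.9 ± 0.681 in ME and 8.86 ± 1.68 in WT, with a log2 fold change of 2.76 ± 0.09 (adjusted p = 6.9e-21) in BN1 by edgeR. Il18rap was lower in each, at 19.7 CPM in BN1, 56.3 in MA9, 80.6 in ME and 240.4 in WT, and Il1r2, the decoy receptor, at 2.65 ± 0.562 CPM in BN1, 4.53 ± 1.06 in MA9, 37.8 ± 0.986 in ME and 78.7 ± 5.57 in WT, had an edgeR log2 fold change of -3.81 ± 0.12 (adjusted p = 1e-19) for BN1 over ME.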
